A study of Mus musculus with 12 samples.

Results

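MOF binding was examined at 9 genes that carry the insulin signal inside the cell: the receptors Insr and Igf1r, the receptor substrates Irs1 and Irs2, the PI3-kinase subunits Pik3r1 and Pik3ca, the kinases Akt1 and Akt2, and their target Tbc1d4. MOF (KAT8) is a lysine acetyltransferase of histone H4. The genes were listed by name, with no threshold on their values, and are 9 of the 21938 protein-coding genes of GENCODE mouse M21 on chromosomes 1 to 19, X and Y. A peak was given to a gene when it touched the gene body or lay within 3 kb of any annotated start site. All 9 symbols were found in the annotation. Under this rule they held 24 of the 19773 peaks of Mof+/+ tissue and 1 of the 731 peaks of Mof+/- tissue.

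The study carried out MOF ChIP-seq in visceral white adipose tissue (WAT) of mice 8 weeks old on a standard diet. The labels give C57BL/6 for both genotypes, and the methods describe backcrossing to C57BL/6J. Mof+/+ mice were wild type with 2 intact copies of the gene that encodes MOF, and Mof+/- mice carried 1, in all cells of the body. The labels give 12 libraries in 6 groups of 2, with input DNA, H3 ChIP and MOF ChIP for both genotypes. Only 1 MOF peak list per genotype was analysed, so differences cannot be compared with variation among animals, and every comparison here is a description without a test. The reporting summary names 2 littermates per genotype, while the series' own text speaks of 3 Mof+/- animals, and whether replicates were pooled for a list is not stated. The MOF antibody in the labels is not among those of the reporting summary. WAT is a mixture of cells. Among marker genes, 6 of 10 for adipocytes had a Mof+/+ peak within 1 kb of a start site (Adipoq, Plin1 and Slc2a4 among them). Lep, Cidec, Fabp4 and Retn did not. For B cells 5 of 6 had one, for T cells 5 of 6 and for macrophages 1 of 6. The share of all protein-coding genes was 41.0%. In the Mof+/- list 0 of 10, 1 of 6, 0 of 6 and 0 of 6 had one, beside 1.32% of all, so counts near 0 say little about a cell type there. At the Slc2a4 (Glut4) promoter, the study's own ChIP-qPCR in WAT found no MOF enrichment. Which cells the peaks below came from was not tested, and in bulk tissue fewer cells of a type cannot be told apart from less MOF per cell.

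Insulin binds its receptor on the adipocyte surface, and the activated receptor phosphorylates the IRS proteins. These recruit PI3-kinase, whose lipid product PIP3 brings AKT to the membrane. AKT then phosphorylates TBC1D4, which releases GLUT4 vesicles to the cell surface so that glucose can enter, and FOXO transcription factors, which are thereby kept out of the nucleus. In adipose tissue the same pathway restrains lipolysis and promotes fat storage.

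A Mof+/+ peak was present at 8 of the 9 genes, all but Tbc1d4. Of all protein-coding genes 44.5% had one by the same rule, and of the 9236 genes no shorter than the shortest member and no longer than the longest 54.3% did. Within 1 kb of a start site, a window that does not grow with gene length, 7 of the 9 had a Mof+/+ peak, beside 41.0% of all protein-coding genes. The exceptions were Irs1 and Tbc1d4. In the Mof+/- list only Igf1r had a peak, 1 of 9, beside 1.89% of all protein-coding genes and 1.75% of those within the members' range of lengths. No member had a Mof+/- peak within 1 kb of a start site, where 1.32% of protein-coding genes had one. Against so low a background, a count of 1 says little about these genes in particular.

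**Figure D1:**
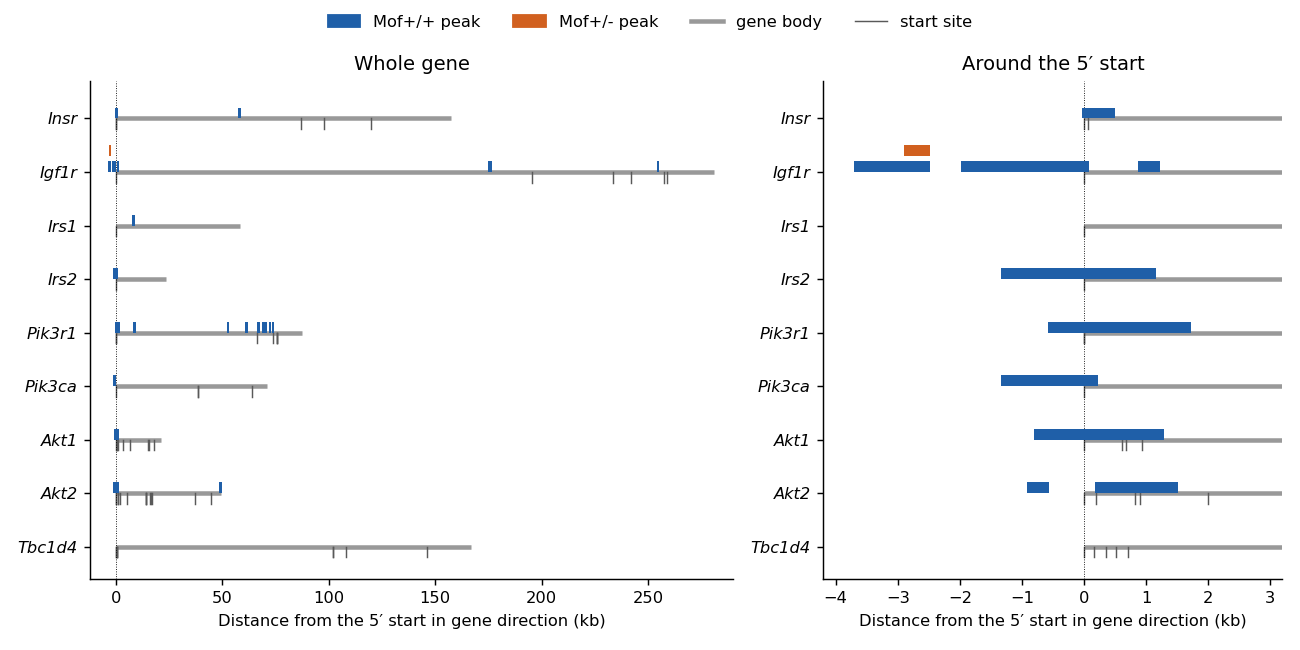
Peaks along the 9 genes, with the distance from each gene's 5′ start in kb on the x axis (left, whole genes; right, the region around the 5′ start) and genes in rows. Blue and orange boxes are Mof+/+ and Mof+/- peaks (widened on the left so that they can be seen), grey bars are gene bodies and ticks are annotated start sites; 7 genes carry blue boxes at the 5′ start, Irs1 and Tbc1d4 do not, and the single orange box lies upstream of Igf1r.

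Peak strength is given as fold enrichment, the fragments over the summit divided by the local input background, each with 1 added. The 24 Mof+/+ peaks had a median fold enrichment of 3.76 (range 2.37 to 6.38), beside a median of 3.40 over the whole list. Of the 24, 14 were above the list's median, 3 were in its top decile and 4 in its lowest decile. Each rested on few fragments, with 12 to 32 at the summit and a median of 17.5. Taking the strongest peak of each gene, the median was 4.64 over the 8 members with a peak and 3.98 over all protein-coding genes with a peak.

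Strength differed with position. The 9 peaks with a summit within 1 kb of a gene's 5′ start had a median fold enrichment of 4.64 (3.32 to 6.38) and a median width of 1561 bp. The other 15, from 5 genes and mostly from Pik3r1, had a median of 2.96 (2.37 to 5.09) and a width of 682 bp. These ranges overlapped, and the intronic peaks of Insr (5.09) and Irs1 (4.25) exceeded some of those at starts. Peaks of 1 gene are not independent, so the lower median owes much to Pik3r1. By the annotation at the summit, 15 peaks were intronic, 5 were upstream of the gene, 3 were in a UTR and 1 was just downstream.

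**Figure D2:**
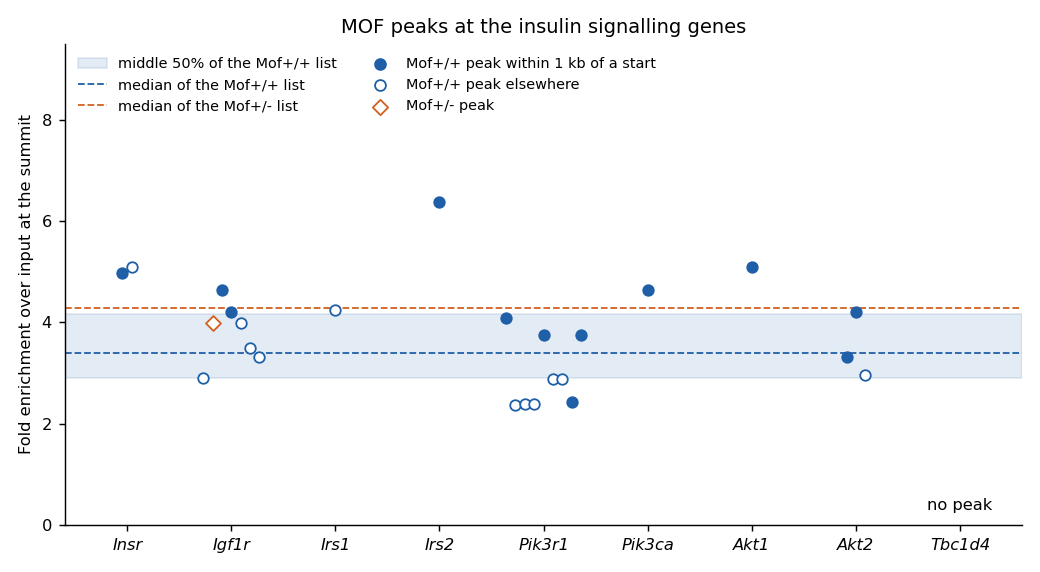
Fold enrichment over input at the summit (y axis) of each peak at the 9 genes (x axis), with peaks of a gene side by side from its 5′ to its 3′ end. Filled circles are Mof+/+ peaks within 1 kb of a start, open circles other Mof+/+ peaks and the diamond the Mof+/- peak; the band is the interquartile range of the Mof+/+ list (2.90 to 4.17) and the dashed lines are the list medians. Irs2 stands highest at 6.38, the weak open circles are mostly those of Pik3r1, and Tbc1d4 has none.

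Insr encodes the insulin receptor, a tyrosine kinase. The gene (ENSMUSG00000005534.10) lies at chr8:3122061-3279617 on the − strand of GRCm38, the build of all coordinates here. It had 2 Mof+/+ peaks of nearly equal strength. The peak over the 5′ start, chr8:3279124-3279645, had a fold enrichment of 4.97 from 23 fragments over a background of 3.83, and its summit lay 161 bp into the gene, in the 5′ UTR. The intronic peak, chr8:3221263-3221965, had a fold enrichment of 5.09 from 22 fragments over 3.52. Its summit lay 58179 bp downstream of the 5′ start and 28721 bp from the nearest annotated start, so no annotated promoter of Insr was near it. Of the list, 89.9% and 90.3% of peaks were weaker. No Mof+/- peak was closer to the 5′ start than 236148 bp.

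The window around the intronic summit is shown because a peak of promoter strength lay there without an annotated start. It is read in the direction of the gene, as are all sequences below. It holds 13 CpG sites in 201 bp with a GC content of 58.2%, and none of the motifs marked by capitals in the other windows.

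Insr intronic summit (chr8:3221338-3221538, - strand): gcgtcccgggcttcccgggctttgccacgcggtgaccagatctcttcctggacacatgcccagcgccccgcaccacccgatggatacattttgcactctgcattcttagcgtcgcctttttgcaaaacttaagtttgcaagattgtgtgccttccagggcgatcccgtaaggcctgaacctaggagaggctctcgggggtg

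Igf1r, the receptor for insulin-like growth factors, is a close relative of Insr and the longest of the 9 genes (ENSMUSG00000005533.10, chr7:67952827-68233668, + strand, 280842 bp). It had 6 Mof+/+ peaks, a number that 27 of 409 genes (6.60%) between 0.8 and 1.25 times its length reached. The strongest, chr7:67950838-67952903, covered the 5′ start with a fold enrichment of 4.64 from 23 fragments, and its summit lay 791 bp upstream. A second peak close by, chr7:67953696-67954054, had a fold enrichment of 4.20 with its summit 977 bp downstream of the 5′ start, in an intron. Of the other 4, a neighbouring pair stood deep in the gene (chr7:68127883-68128314 and chr7:68128619-68129742, fold enrichment 3.98 and 3.50), and the most distal was chr7:68207489-68207791 (3.32). These 3 had no annotated start within 1 kb. The remaining peak, chr7:67949120-67950344, lay upstream of the gene and was weak, at 2.89.

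The only Mof+/- peak of the 9 genes overlapped this weak upstream peak and not the strong peak at the start. It ran from chr7:67949924 to 67950344, ended at the same base as the Mof+/+ peak, and was 421 bp wide. Its summit lay 2604 bp upstream of the 5′ start and 353 bp from the Mof+/+ summit. Its fold enrichment was 3.99, from 12 fragments over a background of 2.26, and 31.6% of the Mof+/- list was weaker. The Mof+/+ peak had 18 fragments over a background of 5.57. As a plain ratio of fragments to background this is 5.31 in Mof+/- (95% Poisson interval 2.74 to 9.27) and 3.23 in Mof+/+ (1.92 to 5.11). The intervals, which cover counting error of the fragments only, overlapped. At its lowest background the Mof+/- list needed 11 fragments for a peak, 1 fewer than were seen here.

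The sequence under the Mof+/- summit is shown because it carries the only Mof+/- peak of the 9 genes. In 201 bp it has a GC content of 31.3% with 2 CpG sites and an unbroken run of 30 A. It holds none of the motifs marked by capitals in other windows.

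Igf1r Mof+/- summit (chr7:67950123-67950323, + strand): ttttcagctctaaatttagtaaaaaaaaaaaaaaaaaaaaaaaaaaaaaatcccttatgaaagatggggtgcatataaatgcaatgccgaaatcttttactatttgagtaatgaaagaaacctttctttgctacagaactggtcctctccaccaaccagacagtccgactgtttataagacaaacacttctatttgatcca

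The receptor substrates differed from each other. Irs2 (ENSMUSG00000038894.7, chr8:10984681-11008458, − strand), a docking protein for PI3-kinase, had the strongest peak of the 9 genes. It was 2492 bp wide, chr8:11007297-11009788, and covered the only annotated start. Its fold enrichment of 6.38 came from 32 fragments over a background of 4.17, and 97.9% of the Mof+/+ list was weaker. The summit lay 874 bp upstream of the start, inside the noncoding gene 9530052E02Rik, which also starts within 1 kb of the peak, so the peak cannot be given to Irs2 alone. Among protein-coding genes with a peak, 95.1% had a weaker strongest peak.

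Irs1 (ENSMUSG00000055980.2, chr1:82233101-82291416, − strand), its close relative, had no peak at its only annotated start. It had 1 peak, in an intron at chr1:82282593-82283650, with a fold enrichment of 4.25 from 19 fragments. The summit lay 8173 bp downstream of the start and the nearest edge 7766 bp. The start of Irs1 was nonetheless rich in CpG, with 85 sites in 1001 bp, more than 86.1% of protein-coding genes. Irs2 had 135 there, more than 99.1%. The nearest Mof+/- peak lay 1380987 bp from the Irs2 start and 3735753 bp from that of Irs1.

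The summit windows of both genes are shown, and the bases just before the Irs1 start as an example of a CpG-rich start without a peak. The Irs2 window lies upstream of its start. It is 231 bp long where the other summit windows are 201 bp, because its upstream side was lengthened to take in a FOXO match centred 110 bp from the summit. Capitals mark GTAAACA (FOXO), GGGCGG (Sp/KLF) and CACGTG (E-box) on either strand.

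Irs2 summit (chr8:11009232-11009462, - strand): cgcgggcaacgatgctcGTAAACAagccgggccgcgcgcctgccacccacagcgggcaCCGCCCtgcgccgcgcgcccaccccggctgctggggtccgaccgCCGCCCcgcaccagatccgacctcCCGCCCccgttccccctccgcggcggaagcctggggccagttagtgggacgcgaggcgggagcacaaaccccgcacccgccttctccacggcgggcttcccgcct

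Irs1 intronic summit (chr1:82283143-82283343, - strand): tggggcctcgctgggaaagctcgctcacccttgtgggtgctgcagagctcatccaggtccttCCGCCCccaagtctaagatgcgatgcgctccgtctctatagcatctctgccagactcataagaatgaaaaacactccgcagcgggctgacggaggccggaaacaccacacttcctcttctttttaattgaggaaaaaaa

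Irs1 before the start (chr1:82291417-82291616, - strand): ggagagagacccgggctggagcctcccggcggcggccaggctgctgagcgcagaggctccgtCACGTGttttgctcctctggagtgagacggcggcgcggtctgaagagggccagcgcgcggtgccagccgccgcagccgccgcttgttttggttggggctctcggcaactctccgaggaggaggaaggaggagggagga

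Pik3r1 (ENSMUSG00000041417.15, chr13:101680563-101768217, − strand) encodes regulatory subunits of PI3-kinase from alternative starts, the longest being p85α. It had 9 Mof+/+ peaks, more than any other member, and 48 of 1407 genes (3.41%) between 0.8 and 1.25 times its length had at least as many. Only 1 was at the 5′ start, the start of the 724-residue form, at chr13:101766499-101768789 with a fold enrichment of 4.09 from 23 fragments. A second stood over an internal start 73617 bp downstream, at chr13:101694025-101694807, with a fold enrichment of 3.76. The start of the 454-residue form (p55α) lay a little further down, and the nearest peak edge was 1395 bp away. The intronic peak chr13:101700838-101701407 matched the 3.76 of the internal start, and the other 6 were between 2.37 and 2.88. Of those 6, 4 were in the lowest decile of the list, the only member peaks that were. The −log10 q-values of those 6 were only 1.02 to 1.59, whereas all 6 Igf1r peaks had 2.52 or more. The lead of Pik3r1 over Igf1r in number of peaks therefore rests on peaks near the limit of the list.

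Pik3ca (ENSMUSG00000027665.13, chr3:32397671-32468486, + strand) encodes the catalytic subunit p110α. Its single peak, chr3:32396332-32397892, covered the 5′ start with a fold enrichment of 4.65 from 20 fragments over 3.52, and the summit lay 521 bp upstream. Of its 3 other annotated starts, none had a peak closer than 38259 bp, including that of a transcript with the same 1068 coding residues. The summit window is shown because it holds a FOXO match nearly at its centre. Capitals also mark CCAAT (NF-Y).

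Pik3ca summit (chr3:32397050-32397250, + strand): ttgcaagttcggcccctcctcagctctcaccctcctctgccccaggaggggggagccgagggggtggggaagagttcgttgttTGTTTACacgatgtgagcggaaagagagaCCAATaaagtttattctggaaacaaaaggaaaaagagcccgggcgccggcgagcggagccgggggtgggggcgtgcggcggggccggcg

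The AKT kinases both had a peak at their starts. Akt1 (ENSMUSG00000001729.14, chr12:112653821-112674884, − strand), the broadly expressed form, had 1 peak at chr12:112673600-112675696 with a fold enrichment of 5.09 from 22 fragments. It covered 4 of the 9 annotated starts, and the summit lay 4 bp from one of them and 674 bp downstream of the most 5′ one. CpG sites followed the summit rather than the 5′ end, with 28 in 1001 bp at the 5′ start and between 126 and 141 at the other 3 covered starts. Akt2 (ENSMUSG00000004056.15, chr7:27591552-27640826, + strand) is the form most closely tied to glucose uptake in adipocytes. It had 3 peaks. The strongest, chr7:27591729-27593068, covered 3 starts with a fold enrichment of 4.20 from 18 fragments. A narrower one just upstream, chr7:27590636-27590986, had 3.32 and one at the 3′ end, chr7:27640398-27641251, had 2.96. The peaks at the starts were 177 bp downstream and 566 bp upstream of the most 5′ start, which neither covered. Transcripts that begin further in but encode the same 481 residues as the 5′ ones had starts 12749 and 12790 bp from the nearest peak.

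Bases just before the most 5′ Akt1 start are shown because they lie inside its peak, far from the summit, and hold only 5 CpG sites and a FOXO match, marked by capitals.

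Akt1 before the 5′ start (chr12:112674885-112675084, - strand): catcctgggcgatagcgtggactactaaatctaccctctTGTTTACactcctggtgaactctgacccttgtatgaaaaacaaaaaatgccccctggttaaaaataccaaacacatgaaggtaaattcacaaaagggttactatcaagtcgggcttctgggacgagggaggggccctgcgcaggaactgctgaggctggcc

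Tbc1d4 (ENSMUSG00000033083.16, chr14:101442360-101609191, − strand, 166832 bp) encodes the Rab GTPase-activating protein at which AKT signalling meets GLUT4 trafficking. It was the only member with no peak in either list. The nearest Mof+/+ peak was 44560 bp from the gene and the nearest Mof+/- peak 2854406 bp. Its 5′ starts were not poor in CpG, with 48 to 85 sites in 1001 bp at 5 starts that lie within 705 bp of each other. A missing peak does not show missing MOF, because a site with fewer than 11 fragments over the lowest background could not be listed. The bases before its 5′ start are shown for comparison with the starts above, with GGGCGG (Sp/KLF) in capitals.

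Tbc1d4 before the start (chr14:101609192-101609391, - strand): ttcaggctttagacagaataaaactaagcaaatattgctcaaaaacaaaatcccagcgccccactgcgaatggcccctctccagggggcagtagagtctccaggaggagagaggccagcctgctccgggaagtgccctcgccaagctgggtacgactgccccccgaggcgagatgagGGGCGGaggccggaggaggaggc

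Across the 9 genes the annotation gives 56 start sites. A Mof+/+ peak lay within 1 kb of 18 of them, with a median of 73.5 CpG sites in 1001 bp (17 to 141), and the other 38 had a median of 18 (4 to 85). At 40 or more CpG sites, 14 starts had a peak and 7 did not, namely 1 of Irs1, 5 of Tbc1d4 and 1 internal start of Akt1. The starts of a gene lie close together and share peaks, so they are not independent. Considering the 5′ starts alone, all 9 members had between 28 and 135 CpG sites, and 7 had a peak within 1 kb. Among the 12717 protein-coding genes within that range of CpG sites, 58.9% had one by this 5′ rule, and among all protein-coding genes 38.0% did.

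**Figure D3:**
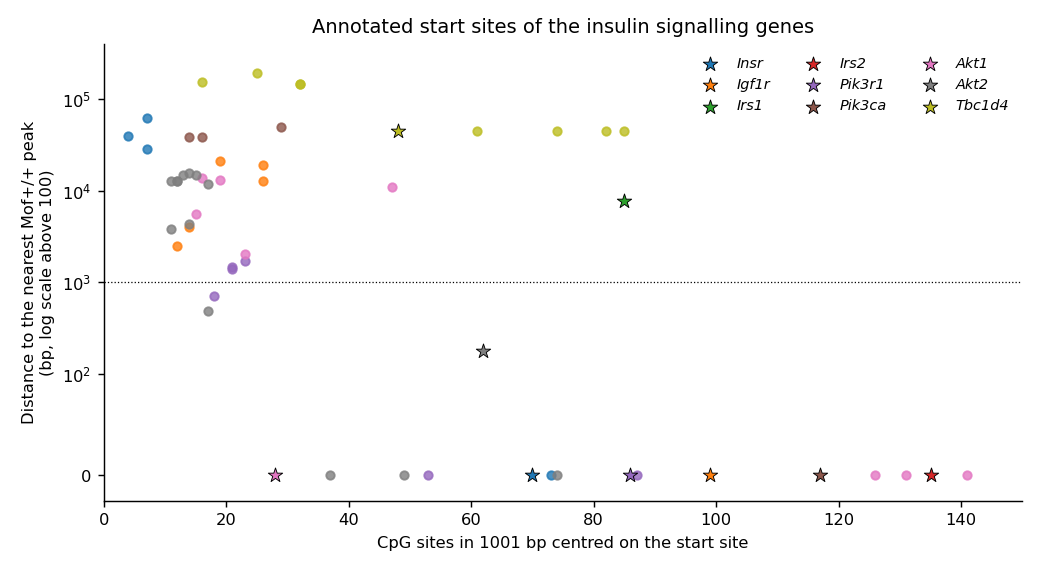
Each point is 1 of the 56 annotated start sites of the 9 genes, with the number of CpG sites in the surrounding 1001 bp on the x axis and the distance to the nearest Mof+/+ peak in bp on the y axis (log scale above 100, peaks that cover the start at 0). Stars are the most 5′ start of each gene and the dotted line is 1 kb; 14 starts with 40 or more CpG sites lie below the line, and the 7 above it are those of Irs1 (1), Tbc1d4 (5) and Akt1 (1).

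Motif letters were counted in the 301 bp around each summit. GTAAACA, the FOXO core, was present on either strand in 5 of the 24 member windows (20.8%) and in 608 of the 19753 windows of the Mof+/+ list on the assembled chromosomes (3.08%). The 5 windows belong to Insr, Igf1r (2), Irs2 and Pik3ca. FOXO factors are among the targets through which AKT acts on transcription, and they are known to act on the genes of the insulin receptor and IRS2 when insulin is low. Of these matches 4, those of Insr, Irs2, Pik3ca and the upstream peak of Igf1r, are shown in the direction of each gene, with the motif in capitals.

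Insr, start peak (capitals at chr8:3279553-3279559): cgggctgcgtTGTTTACgggctggagt

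Igf1r, upstream peak (capitals at chr7:67949958-67949964): caagtttccgGTAAACAaaacagccct

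Irs2, start peak (capitals at chr8:11009439-11009445): aacgatgctcGTAAACAagccgggccg

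Pik3ca, start peak (capitals at chr3:32397133-32397139): gttcgttgttTGTTTACacgatgtgag

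The centre of the match lay 14 bp from the summit at Pik3ca, and between 89 and 110 bp from it in the other 4 windows. Over whole peaks, the letters were in 10 of the 24 (41.7%) and 9.15% of the list, with at least 1 match at each of the 8 genes with a peak. Member peaks were wider than the list (median 743 bp against 609 bp), and wider peaks hold more letters. In windows of 201 bp the counts were 3 of 24 (12.5%) and 2.01%. Of the other letters searched, GGGCGG was in 8 of 24 windows (33.3%, beside 28.3% of the list), CCGGAAG (ETS) in 4 (16.7% beside 6.49%), CCAAT in 5 (20.8% beside 25.7%), AGGTCA (a nuclear receptor site) in 5 (20.8% beside 16.4%), and CACGTG in 1 (4.17% beside 6.10%). TGACGTCA (CRE) and TTGCGCAA (C/EBP) were in 0 of 24, beside 0.633% and 0.137%. All were searched on both strands. A match describes the letters under a peak, not a bound site. Chromatin had been cut with the enzyme CviKI-1, and its cut sites (RGCY, with R a purine and Y a pyrimidine) were about as frequent at member summits (median 7.5 in 301 bp) as over the list (7).

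The Mof+/- list was shallower, and whether a Mof+/+ peak could have been found in it depends on depth. Input background bottomed out at 3.52 fragments per summit in Mof+/+ and at 2.26 in Mof+/-, which is 0.642 of the former. The weakest listed peak had a −log10 p of 3.25 and 4.72, respectively. Fragments and background of each member peak were therefore multiplied by 0.642 and its Poisson p-value was computed again. After this, 12 of the 24 Mof+/+ peaks still passed the weakest Mof+/- p-value, beside 36.9% of the 19749 peaks of the list that could be scaled. None of these 12 overlapped a Mof+/- peak, and neither did 95.1% of the 7297 peaks of the whole list that passed, so the count is near the share of the list. The 12 were both Insr peaks, 4 of the 6 Igf1r peaks, the peaks of Irs1, Irs2, Pik3ca and Akt1, and the strongest of Pik3r1 and of Akt2. The margin was widest for Irs2, at a −log10 p of 12.7 with 21 fragments. It was next widest for the start peak of Insr at 8.07, and the intronic peak of Insr and the peak of Akt1 were equal at 7.72. It was narrowest for the intronic pair of Igf1r, at 5.33 and 5.26.

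The other 12 peaks fell short of 4.72 after scaling. For the 11 of them with no Mof+/- peak, absence from that list could not be told apart from lower depth and its stricter p-value limit. Both lists were cut at a q-value of 0.1, which fell at a lower −log10 p (3.25) in Mof+/+. The 12 included 8 of the 9 Pik3r1 peaks, with values of 2.30 to 4.60, some of them above 3.25. The upstream Igf1r peak also fell short, at 4.03, and it is the one that did overlap a Mof+/- peak, with a −log10 p of 6.09 there. The 1 member site listed in both genotypes was thus not one of those that scaling would have kept. How efficient each immunoprecipitation was, and how the animals of a genotype differed, are not given by the lists.

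**Figure D4:**
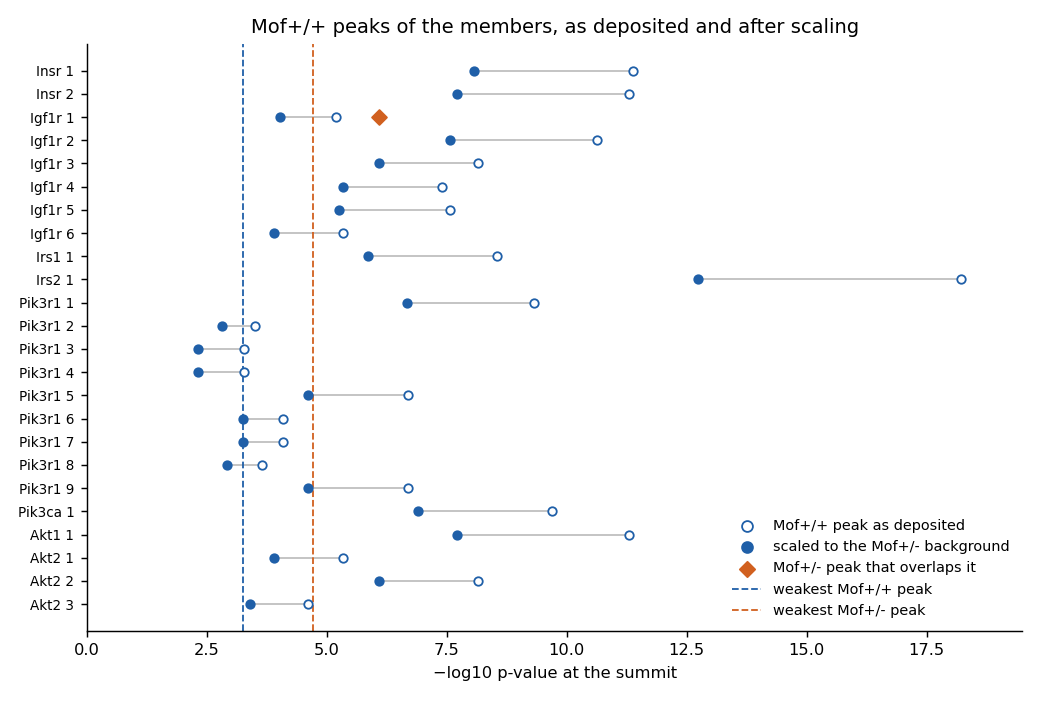
Each row is a Mof+/+ peak of a member, numbered from the 5′ end of the gene, with the −log10 p-value at its summit on the x axis as deposited (open circles) and after scaling to the Mof+/- background (filled circles). Dashed lines are the weakest peaks of the Mof+/+ (3.25) and Mof+/- (4.72) lists and the diamond is the Mof+/- peak at Igf1r; 12 filled circles lie to the right of 4.72.

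A further 54 genes of the pathway were taken from a list of ligands, adaptors, kinases, phosphatases, inhibitors and genes listed with AKT and mTORC1. Of these, 44 (81.5%) had a Mof+/+ peak, beside 44.5% of protein-coding genes, and 42 (77.8%) had one within 1 kb of a start, beside 41.0%. Only 1, Rictor, had a Mof+/- peak, beside 1.89%. None of these backgrounds was matched to the 54 genes in length or CpG sites, and what the differences owe to these was not tested. The shares differed by role. All 16 genes listed with AKT and mTORC1, not all of them targets of either, had a Mof+/+ peak near a start. So did all 4 other PI3-kinase genes and all 4 PIP3 phosphatases. Of the 6 ligands and ligand-binding receptors 2 had a peak at all and 1 near a start.

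Among the genes listed with AKT and mTORC1 the strongest peak was at Rac1, a small GTPase of the actin skeleton (fold enrichment 6.86). Foxo1 had 18 peaks with a strongest of 5.56. Of the PI3-kinase genes, Pik3cd, the p110δ subunit typical of leukocytes, had the highest value at 5.89 and 21 peaks. The peak counts of Foxo1 and Pik3cd were not set beside those of genes of similar length. Inpp5k led the phosphatases at 5.09 and Grb2 the adaptors at 5.71. Socs3 and Ptpn1, which restrain the receptor and its substrates, led the inhibitors at 5.09 each. Igf2 had the stronger of the peaks among the ligands at 3.98, with its summit 1811 bp upstream of the nearest start. No Mof+/+ peak was found at Ins1, Ins2, Igf1, Insrr, Irs4, Gab1, Mtor, Grb10, Grb14 or Phlpp2.

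Rictor encodes a defining subunit of mTORC2, the kinase complex that completes AKT activation. Of its 2 Mof+/+ peaks, chr15:6704739-6708765 had a fold enrichment of 4.94 from 28 fragments. The other, chr15:6726515-6726807, lay 18140 bp downstream of the nearest start with 2.51 from 12 fragments and overlapped no Mof+/- peak. Inside the former stood 2 Mof+/- peaks, chr15:6706051-6706452 (4.22, 13 fragments) and chr15:6707133-6708022 (5.21, 16 fragments). The summit of the first lay 2196 bp upstream of the nearest start, outside the 1 kb window, and that of the second 665 bp upstream, next to the Mof+/+ summit at 682 bp. Kat8 itself had 3 Mof+/+ peaks (4.20, 3.54 and 4.65) and 0 in the Mof+/- list.

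**Figure D5:**
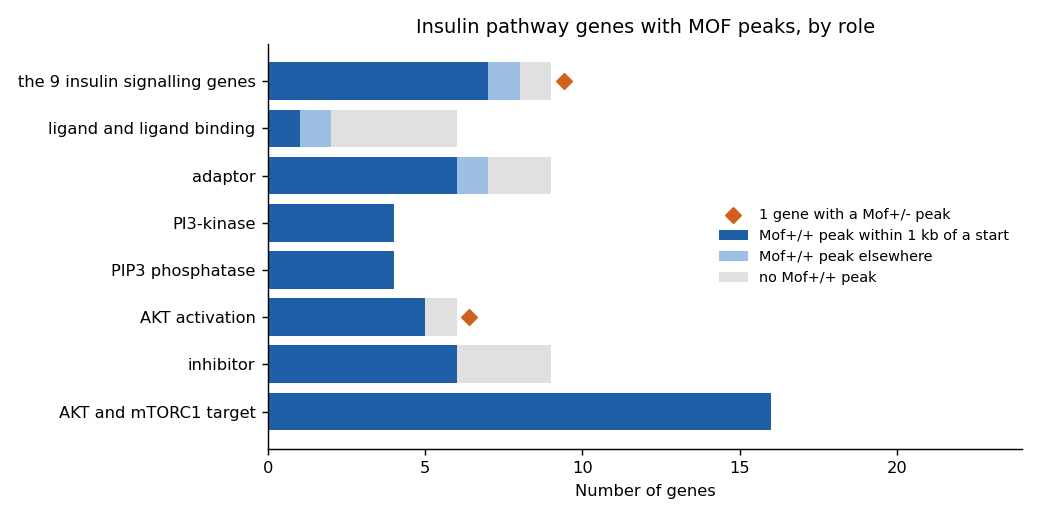
Number of genes (x axis) of each role in the insulin pathway (rows) with a Mof+/+ peak within 1 kb of a start (dark blue), with one elsewhere (light blue) or with none (grey). Diamonds mark rows with 1 gene that had a Mof+/- peak (Igf1r and Rictor). The dark bar fills the rows of PI3-kinases, phosphatases and the genes listed with AKT and mTORC1 (labelled as targets, though not all are). It is shortest for ligands, at 1 of 6.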

How the data were processed

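The 9 genes, the 54 other pathway genes and the marker genes were chosen with earlier results of these data known. Reads had been mapped to GRCm38 by the authors, and peaks called with MACS2 (2.1.1.20160309.3 per the submitters' processing notes) against input at a q-value of 0.1. The deposited lists hold, for each peak, a fold enrichment (a ratio to the local input background with a pseudocount of 1), a −log10 p-value and a −log10 q-value at the summit, and the summit position, all made by the authors' caller. The deposited score column was not used. Library totals were not in the lists, so depth was read from the peaks: the whole number of fragments and the background that give the deposited fold enrichment and p-value were solved for (tolerance 0.001 in −log10 p), which succeeded for 99.98% of Mof+/+ and 99.5% of Mof+/- peaks. This step and the overlap of peaks with gene windows were checked on simulated data.

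Genes came from GENCODE M21 and sequence from the RefSeq assembly of GRCm38. Overlap meant at least 1 bp. Python 3.11.15, pandas 2.3.3, NumPy 2.4.6, SciPy 1.17.1 and matplotlib 3.10.9 were used. Intervals are 95% exact Poisson intervals and cover counting error only. All members and each of their peaks were named, and of the other pathway genes those with a Mof+/- peak, the strongest of each role and those with no peak, except for a few items that are not reported here; Foxo1 and the number of peaks of Pik3cd were added after their values were seen. The motifs were chosen after the lists had been read. H3 libraries and signal tracks were not analysed here. Alternatives changed the window, the threshold, the start sites and the scaling. With 1 list per genotype no test across animals was possible.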

Additional observations from a re-analysis of the deposited data

How the results depend on the processing

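Of 69 alternative values, 58 stayed within 1.5 times the reported one, or for the median fold enrichment within the counting error of a summit with the median number of fragments. The 11 others were as follows. At a q-value of at most 0.001, 14 of the 24 Mof+/+ peaks were left, because weaker peaks are removed, while 8 genes kept a peak. The Mof+/- peaks at the members, and the members with one, went from 1 to 0 with a start window of 1 kb beside the gene body, with the gene body only and under the same q-value limit, since the Igf1r peak lies upstream and has a −log10 q-value of 2.06. Among the other pathway genes, those with a Mof+/- peak went from 1 to 0 with the gene body only and to 2 with a window of 10 kb. The FOXO letters were in 3 windows of 201 bp and in 10 whole peaks, alternatives chosen after seeing the data. The count of 7 members with a Mof+/+ peak near a start was the same under each of its 6 alternatives. The count of 12 peaks kept after scaling was 12 with the ratio of median backgrounds and 17 with no scaling. No paired analysis was possible because the lists carry no replicate numbers. Summits of 12 to 32 fragments limit any ratio between lists.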
